A study of Mus musculus with 4 samples.

Results

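The nuclear genes for subunits of the mitochondrial respiratory chain were followed in liver at 4, 8, 13 and 21 months of age, in males of C57BL/6J, a strain of inbred laboratory mice. All had free access to a low-fat diet. For each age, liver RNA from 6 mice was combined into 1 pool and hybridised to 1 oligonucleotide microarray. Members were chosen by gene symbol alone: Ndufa, Ndufb, Ndufc, Ndufs or Ndufv with a number, Sdha to Sdhd, symbols that begin with Uqcr, Cyc1, Cycs, Cox4i1, Cox5a, Cox5b, and symbols that begin with Cox6, Cox7 or Cox8. This gave 64 of the 18193 genes that had a probe set (a group of short probes for 1 transcript) annotated to a single symbol. A gene was read by its brightest probe set (highest mean of the 4 arrays), a choice that mattered for the 39 of 64 members with several. The deposited values are log2 expression values made with RMA, and a difference of 0.14 between them is 1.1-fold. The 59 members whose mean reached the median of all probe set means, 3.74, were kept for counts, beside 11577 kept genes in all. By symbol they were 33 genes of complex I, 4 of complex II, 9 of complex III, the cytochrome c gene and 12 of complex IV. There was 1 array per age, so no pair of ages was tested and no error can be attached to a difference; the mice of a pool and their spread were not measured singly.

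The respiratory chain passes electrons from food to oxygen across the inner mitochondrial membrane and pumps protons, whose return drives ATP synthase. Complex I takes electrons from NADH and complex II from succinate, coenzyme Q carries them to complex III, cytochrome c carries them on to complex IV, and complex IV hands them to oxygen. The liver, with many mitochondria, uses this chain to pay for glucose, urea and protein synthesis. Complexes I, III and IV are built from subunits of both nuclear and mitochondrial genes and complex II from nuclear genes only, and the symbols followed here are nuclear.

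The arrays were close in overall level, with medians of 3.75, 3.76, 3.75 and 3.73 at 4, 8, 13 and 21 months. The labelled tissue was seen in the hepatocyte genes for albumin (Alb, 13.43 to 13.49) and transthyretin (Ttr, 13.08 to 13.12). Of 8 hepatocyte markers 7 were lower at 8 than at 4 months, among them Tat at -0.66 and Ass1 at -0.50, enzymes of amino acid and urea metabolism, with a median of -0.05. At 21 vs 4 months 6 of them were lower and 2 higher, with a median of -0.055. Over all kept genes 48.7% were lower at 8 vs 4 months and 45.2% at 21 vs 4 months. Over those with a mean of 9 or more the shares were 54.2% and 41.3%. Macrophage markers differed between the pools. All 10 were lower at 8 than at 4 months, and all 10 higher at 21 than at 4 months, beside 51.4% of all kept genes. All 10 were above the filter, and their summed level on the linear scale was 2714, 2035, 2842 and 4657 at the 4 ages against 49970, 47810, 48930 and 48930 for 8 hepatocyte markers. All 5 endothelial markers were also lower at 8 than at 4 months, with sums of 538.4, 448.8, 476.7 and 553.0. The 4 bile duct markers summed to 49.14, 73.45, 46.28 and 50.4, and Krt19, below the filter on its mean, was at 3.48, 4.99, 3.32 and 2.99. Of the fat markers Ucp1 and Adipoq were below the filter, and Retn was at 4.62, 4.55, 4.40 and 4.48. Cidea, a lipid droplet gene also made in fatty liver, was at 2.69, 3.87, 3.84 and 6.71. Its mean passed the filter only through the 21-month value. The part of these markers in the results that follow was not tested. In pooled tissue, fewer cells of a type and less RNA per cell cannot be told apart.

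The respiratory chain genes differed little over the whole span of age. The range of a gene, its highest minus its lowest value over the 4 arrays, had a median of 0.10 over the 59 members, against 0.22 over all kept genes and 0.16 over the 1166 kept genes with a mean of 9 or more. The range was under 1.1-fold in 40 of 59 members, or 67.8%, where 23.9% of all kept genes and 42.6% of the genes with a mean of 9 or more had so small a range. The comparison with bright genes is given because 51 of the 59 members had a mean of 9 or more and bright probe sets vary less. The smallest range was 0.02 and the largest, 0.38, was that of Cox7c, a small complex IV subunit whose probe set lay near the filter. No member differed by 1.5-fold between 21 and 4 months, where 2.52% of all kept genes did.

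Within this narrow band the members were not spread evenly over the ages. A value at 13 months above all 3 other ages was seen in 28 of 59 members, or 47.5%, against 22.4% of all kept genes and 25.5% of the bright ones. The lowest value lay at 21 months alone in 24 members, or 40.7%, against 25.1% of all kept genes and 22.9% of the bright ones. At 8 months alone it lay in 23, or 39.0%, against 26.2% and 33.4%, so the bright genes came nearer to the members there. At 13 months alone the lowest value was seen in Ndufb3 and Ndufv3, that is 2 members, against 21.2% of all kept genes and 17.2% of the bright ones. With the arrays centred on the median, quantile-normalized or put through cyclic loess, the number lowest at 21 months was 37, 42 and 37, beside 34.4%, 32.0% and 28.3% of all kept genes. The number lowest at 8 months was 14, 10 and 13, beside 22.3%, 22.8% and 25.4%, and the number highest at 13 months 34, 23 and 22, beside 26.6%, 23.5% and 23.7%.

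**Figure D1:**
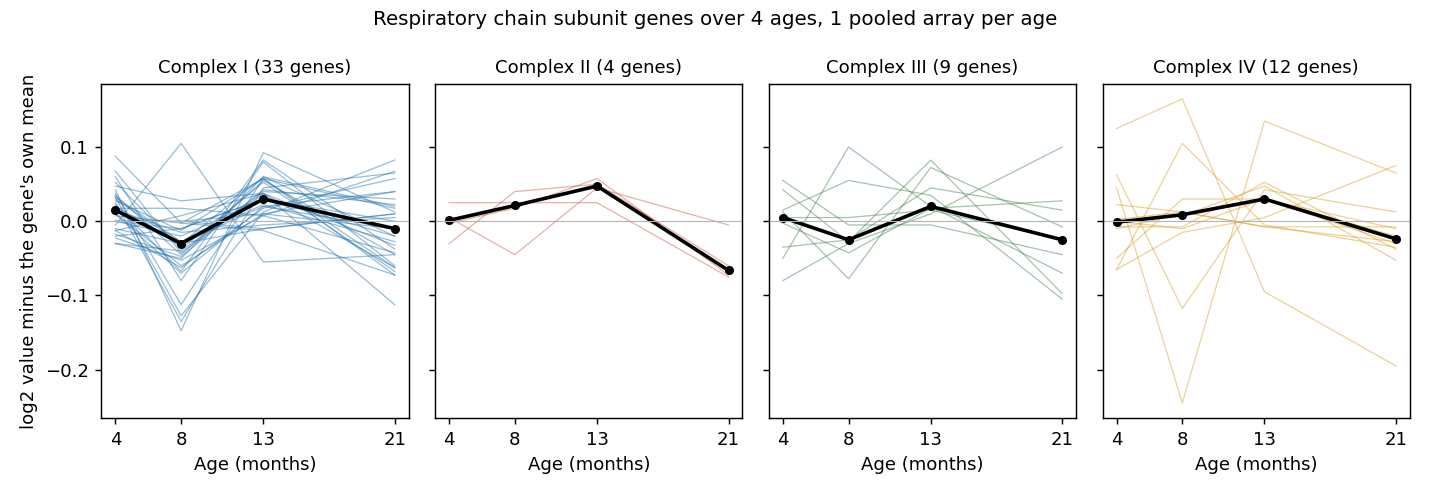
Each thin line is 1 kept gene, drawn as its log2 value minus its own mean over the 4 arrays against age in months, in a panel for each complex, and the black line is the median of the panel. No line spans more than 0.38, the complex I median is lowest at 8 months, and the medians of complexes II and IV are lowest at 21 months.

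The comparison of 21 with 4 months addresses the span from young adulthood to old age. Of the 59 members 41 were lower at 21 months and 18 higher, where 45.2% of all kept genes and 41.3% of the bright ones were lower. The median difference was -0.02, against 0.01 over all kept genes and 0.02 over the bright genes. The differences were small: 4 members were at least 1.1-fold lower (17.4% of all kept genes, 11.1% of the bright ones). At least 1.1-fold higher were 2 members (22.2% and 18.7%). The 4 were Cox8c, Ndufa12, Ndufs7 and Uqcrc1, and the 2 were Uqcrc2 and Cox7a2l. With each gene taken as the mean of its probe sets, 0 members were at least 1.1-fold higher. Other scalings kept the direction but also shifted the background. After centring on the array median 44 of 59 members and 53.7% of all kept genes were lower. After quantile normalization 50 members and 53.0% of all kept genes were lower, and the members' median was -0.07. After cyclic loess 46 members and 49.1% of all kept genes were lower, and the median was -0.06. The members at least 1.1-fold lower then numbered 8, 10 and 8, beside 22.2%, 19.7% and 17.4% of all kept genes, and those at least 1.1-fold higher 1, 0 and 1, beside 18.2%, 18.8% and 21.1%.

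A second view of the same RNA came from the other probe sets of these genes. In 36 members the next brightest probe set was above the filter too, and there 25 were lower and 10 higher at 21 than at 4 months, with a median of -0.03 beside -0.025 for the probe sets used. The pair of probe sets pointed the same way in 26 of the 36 genes and opposite ways in 9. Their differences disagreed by a median of 0.04 and by up to 0.26, which is as large as most of the differences themselves. More genes were lower than higher in both views, while the sign of a gene with a difference near 0.04 is within the disagreement of its own probe sets. The share lower among the next brightest probe sets of all genes was not counted, so the second view has no background beside it. Both views come from the same pools, so they hold no spread between mice.

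**Figure D2:**
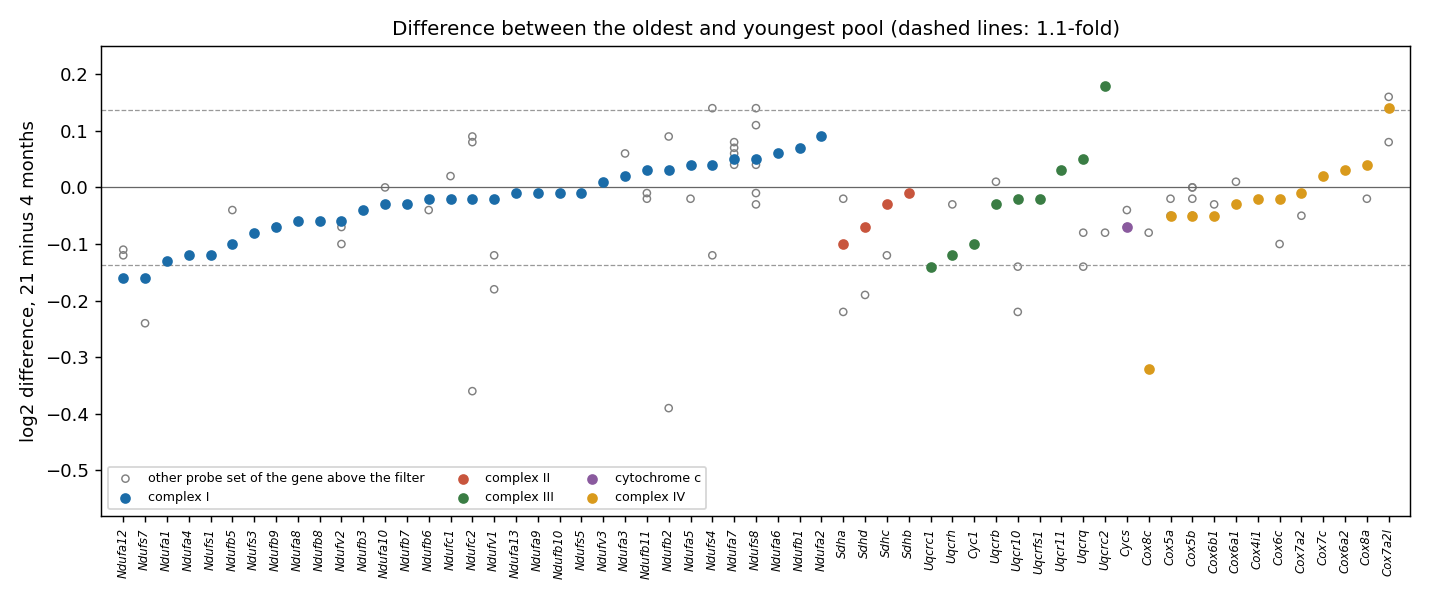
Filled points give the log2 difference between 21 and 4 months of each kept gene, coloured by complex and ordered by size within it, and open circles give other probe sets of the same gene above the filter. Most filled points lie between the dashed lines at 1.1-fold, and the open circles of Ndufs7 and Ndufa12 lie below 0 with their filled points while that of Uqcrc2 lies on the other side of 0.

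The promoters of these genes are shown because many respiratory chain genes are known to be bound by the factors NRF1, GABP (an ETS factor, also called NRF2) and YY1. Windows of 300 bases, 250 before to 50 after the start of the gene, were taken from RefSeq on the GRCm38.p6 build, and 52 of the 64 members had an entry. The letters GCGCATGCG, of an NRF1 motif, were found on either strand in 5 of 52 members, or 9.62%, against 1.95% of 27025 genes. The letters CCGGAAGT, of an ETS motif, were found in 4 members, or 7.69%, against 4.31%, and AAGATGGCG, of a YY1 motif, in 4 members, or 7.69%, against 1.64%. The NRF1 motif nearly reads the same on both strands, so in Cox6a1 and Uqcrc1 overlapping matches on both strands are 1 place. In all 12 members held a motif, or 23.1%, against 7.48% of all genes. These are matches of letters, not measured binding. The windows below are those of the members at least 1.1-fold apart between 21 and 4 months that held a motif, Ndufs7 (chr10:80249199-80249498 on the plus strand) and Uqcrc1 (chr9:108936398-108936697 on the plus strand), and of Cycs, the gene of the electron carrier itself (chr6:50566520-50566819 on the minus strand). They are written 5′ to 3′ along the gene, with the motif in capitals, a YY1 motif in Ndufs7 and an NRF1 motif in the other two.
Ndufs7: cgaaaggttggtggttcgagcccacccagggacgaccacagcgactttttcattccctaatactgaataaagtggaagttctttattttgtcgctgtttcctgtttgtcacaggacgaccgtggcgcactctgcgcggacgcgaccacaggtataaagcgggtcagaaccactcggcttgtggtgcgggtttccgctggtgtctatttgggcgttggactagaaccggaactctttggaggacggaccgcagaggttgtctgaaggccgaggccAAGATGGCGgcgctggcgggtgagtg
Uqcrc1: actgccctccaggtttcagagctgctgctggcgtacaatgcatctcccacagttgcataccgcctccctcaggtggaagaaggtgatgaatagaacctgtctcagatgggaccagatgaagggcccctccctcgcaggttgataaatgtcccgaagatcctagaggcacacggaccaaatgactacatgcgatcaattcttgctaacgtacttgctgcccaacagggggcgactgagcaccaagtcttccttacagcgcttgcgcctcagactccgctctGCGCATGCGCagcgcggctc
Cycs: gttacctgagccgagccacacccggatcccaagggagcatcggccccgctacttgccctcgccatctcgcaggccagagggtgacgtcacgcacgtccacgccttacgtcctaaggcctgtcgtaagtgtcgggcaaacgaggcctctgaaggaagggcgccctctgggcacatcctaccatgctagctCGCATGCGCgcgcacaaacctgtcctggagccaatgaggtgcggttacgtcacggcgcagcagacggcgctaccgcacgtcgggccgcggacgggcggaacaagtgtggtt

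The motif in Ndufs7 began 24 bases after the start site and that in Uqcrc1 30 bases after it, while the motif in Cycs began 61 bases before it. The YY1 letters lay after the start site in all 4 members that held them, at 22 bases in Ndufc1, 24 in Ndufs7, 29 in Ndufa9 and 35 in Ndufs4. At 21 vs 4 months these 4 genes differed by -0.02, -0.16, -0.01 and 0.04. The members with NRF1 letters were Cox6a1, Cycs, Ndufa8, Uqcr11 and Uqcrc1, with differences of -0.03, -0.07, -0.06, 0.03 and -0.14, so genes with the same motif differed in size and sign. Cox8a, Ndufs3, Uqcr11 and Uqcrh held the ETS letters and differed by 0.04, -0.08, 0.03 and -0.12.

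Complex I had the most members. Of its catalytic core, which carries the flavin and the iron-sulfur clusters, 6 nuclear subunit genes are described. At 21 vs 4 months 5 of the 6 were lower and 1 higher, with a median of -0.07, and 1 was at least 1.1-fold lower. Of all kept genes 45.2% were lower and 17.4% at least 1.1-fold lower, and of the bright ones 41.3% and 11.1%. Ndufs7, which holds the last iron-sulfur cluster before coenzyme Q, was at 9.49, 9.47, 9.48 and 9.33 at 4, 8, 13 and 21 months. The 3 younger pools lay within 0.02 of each other and the 21-month pool stood below them, at -0.16 from 4 months or 1.12-fold. Its other probe set read 9.19, 9.07, 9.07 and 8.95, also lowest at 21 months, at -0.24 from 4 months.

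Ndufs1, the largest core subunit, read 8.76, 8.62, 8.78 and 8.64, so the 4-month and 13-month pools were high and the 8-month and 21-month pools low. Ndufv2, a subunit of the NADH-oxidising module, had the same order, with 10.12, 10.03, 10.18 and 10.06. Its other probe sets, at 9.76, 9.69, 9.65 and 9.66 and at 9.64, 9.62, 9.59 and 9.57, did not show the high value at 13 months. Ndufs3 was at 10.21, 10.13, 10.23 and 10.13. Ndufv1, which binds NADH and the flavin, stayed within 9.91 to 9.98, and its other probe sets were lower at 21 than at 4 months by 0.12 and 0.18 on the log2 scale. Ndufs8 was the core subunit higher at 21 months, at 10.14, 9.98, 10.12 and 10.19, a difference of 0.05, and 3 of its other 5 probe sets were higher and 2 lower.

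The 27 kept genes counted as accessory subunits of complex I, which surround and stabilise the core, differed less. Their median was -0.01, with 17 lower and 10 higher, beside 45.2% of all kept genes and 41.3% of the bright ones lower. Ndufa12, which sits beside the NADH module, was lower at every step, at 10.56, 10.47, 10.46 and 10.40, in all by 0.16 or 1.12-fold, and its next probe sets were at -0.12 and -0.11 without the same order of ages. Ndufa1, needed early in assembly of the membrane arm, was at 11.40, 11.29, 11.37 and 11.27. Ndufa4, named as a complex I subunit but since assigned to complex IV, is counted with complex I here by its symbol. It was at 11.13, 11.04, 11.13 and 11.01. In both Ndufa1 and Ndufa4 the 4-month and 13-month pools were high and the 8-month and 21-month pools low. Ndufa2 had the largest higher difference of the complex, 0.09, with 8.81, 8.78, 8.84 and 8.90. The supernumerary subunits Ndufs5, Ndufv3 and Ndufa13 were the least variable, with ranges of 0.02, 0.02 and 0.03. Ndufb4 had a single-symbol probe set at 2.20 to 2.42, below the filter, while the brighter of 2 probe sets it shares with Ndufb4b and Ndufb4c read 9.93, 9.88, 10.01 and 9.97.

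The other accessory subunits varied within narrow limits. Ndufa7 was read by 5 probe sets, all above the filter and all higher at 21 than at 4 months, by between 0.04 and 0.08. The one used was at 10.30, 10.28, 10.39 and 10.35, higher in the pair of older pools. Ndufb5 and Ndufb9, of the membrane arm, were highest at 13 and lowest at 21 months, at 10.07, 10.03, 10.10 and 9.97 and at 11.05, 11.04, 11.10 and 10.98. Ndufb9 kept its low 21-month value in its other bright probe set, at 10.85, 10.78, 10.86 and 10.78, and Ndufb5 did not, at 9.98, 9.84, 9.92 and 9.94. Ndufb2 and Ndufc2 each had a dim probe set, near the filter, that was lower at 21 than at 4 months, by 0.39 and 0.36 on the log2 scale. Their bright probe sets differed by 0.03 and 0.09 and by -0.02, 0.08 and 0.09, so no direction is read from the dim ones. Ndufa11 and Ndufs6 were read only by probe sets annotated also to Ndufa11b and Ndufs6b, the brightest at 8.83 to 8.93 and 9.43 to 9.53, and were not counted.

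Complex II, succinate dehydrogenase, is also an enzyme of the tricarboxylic acid cycle. All 4 subunit genes were lower at 21 than at 4 months and at 21 than at 13 months, with medians of -0.05 and -0.11, and none by 1.1-fold. Lower in these comparisons were 45.2% and 46.4% of all kept genes, and 41.3% and 45.0% of the bright ones. Sdha, the flavoprotein that oxidises succinate, was at 10.59, 10.59 and 10.59 in the younger pools and 10.49 at 21 months. Its next probe set was at 10.25, 10.22, 10.26 and 10.23 and so showed a difference of -0.02. The membrane anchor Sdhd was at 10.07, 10.09 and 10.13 in the younger pools and lower by 0.13 on the log2 scale at 21 than at 13 months, and the other anchor, Sdhc, at 9.34, 9.41, 9.42 and 9.31. In both anchors the 21-month pool was the lowest, by 0.07 and 0.03 from 4 months. Sdhb, the iron-sulfur subunit, was at 10.33, 10.28, 10.37 and 10.32, lowest at 8 months. The other probe set of Sdhc, at 9.13, 9.14, 9.04 and 9.01, and that of Sdhd, at 7.07, 6.88, 6.89 and 6.88, were also lower at 21 than at 4 months. Averaging every probe set of each gene, dim ones included, put the complex II median at 21 vs 4 months at -0.10. For Sdha this took in a probe set near the filter, at -0.22, and another below it, at -0.29. No direction is read from these.

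In complex III, which moves electrons from coenzyme Q to cytochrome c, 6 of 9 genes were lower at 21 than at 4 months and 3 higher. Over all kept genes 45.2% were lower, and over the bright ones 41.3%. The core proteins Uqcrc1 and Uqcrc2 went opposite ways. Uqcrc1 was at 10.23, 10.16, 10.27 and 10.09, lowest at 21 months, at -0.14 or 1.1-fold from 4 months. Uqcrc2 was higher at every step, at 10.12, 10.17, 10.21 and 10.30, in all by 0.18 or 1.13-fold. Its other probe set, at 9.41, 9.22, 9.29 and 9.33, was highest at 4 months and lower at 21 months by 0.08 on the log2 scale, so the direction of Uqcrc2 is not settled here.

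Uqcrh, the hinge protein that binds cytochrome c1, was at 10.67, 10.71, 10.69 and 10.55, with the 21-month pool below the rest, and its other probe set was at 10.20, 10.12, 10.20 and 10.17. The Rieske iron-sulfur protein gene Uqcrfs1 was at 10.31, 10.22, 10.37 and 10.29, lowest at 8 and highest at 13 months. Cyc1, which encodes cytochrome c1, was at 10.72, 10.66, 10.66 and 10.62, highest in the youngest pool. Cycs, the soluble carrier, was at 10.89, 10.84, 10.82 and 10.82, also highest at 4 months. Its next probe sets read 10.18, 10.25, 10.27 and 10.14 and 9.07, 9.10, 9.07 and 9.0, both lowest at 21 months but not highest at 4 months.

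In complex IV, cytochrome c oxidase, 8 of the 12 kept genes were lower at 21 than at 4 months and 4 higher, with a median of -0.02. Beside them 45.2% of all kept genes and 41.3% of the bright ones were lower. Cox4i1, a regulatory subunit bound early in assembly, was at 11.53, 11.55, 11.57 and 11.51. Cox6a1, Cox6b1, Cox7a2 and Cox8a, the isoforms of liver, differed by between -0.05 and 0.04 at 21 vs 4 months. Cox5b and Cox6c, at 11.37, 11.38, 11.42 and 11.32 and at 11.32, 11.31, 11.35 and 11.30, were also highest at 13 and lowest at 21 months. Other probe sets of Cox5b, at 10.54, 10.43, 10.65 and 10.54 and at 10.35, 10.25, 10.37 and 10.30, were highest at 13 but lowest at 8 months. That of Cox6c, at 9.78, 9.57, 9.67 and 9.68, was highest at 4 and lowest at 8 months. Cox6b1 was lower at every step, from 11.18 to 11.17, 11.15 and 11.13. Its other probe set, at 10.99, 11.07, 11.01 and 10.96, was highest at 8 and lowest at 21 months. On the probe sets used, Cox6b1 and Ndufa12 made 2 members lower at every step, where 3.14% of all kept genes were. Uqcrc2 and Cox7a2l made 2 higher at every step, where 4.36% were. With the mean of each gene's probe sets 1 member in all kept to 1 direction.

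Cox7a2l encodes a factor that joins complexes III and IV into supercomplexes, and C57BL/6J mice are known to carry a short form of the protein. It was at 9.09, 9.14, 9.16 and 9.23, higher at every step and by 0.14 or 1.1-fold in all. Its other probe sets read 9.07, 9.18, 9.14 and 9.23 and 8.49, 8.52, 8.55 and 8.57. All 3 probe sets were lowest at 4 and highest at 21 months. Of the genes past 1.1-fold at 21 vs 4 months, this was the higher one on which all kept probe sets pointed the same way.

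Isoforms of other tissues were checked as well. Cox7a1 and Cox8b, of heart, muscle and brown fat, were below the filter, as were Cox6b2 and Cox7b2, of testis, so no change is read from them. Their levels over the 4 arrays ran from 2.79 to 3.39, 3.15 to 3.46, 3.24 to 3.50 and 1.96 to 2.21. Cox6a2, the heart and muscle isoform, lay not far above the filter at 4.80, 4.97, 4.86 and 4.83. Markers of heart were all below the filter, and 6 of 10 markers of skeletal muscle were, with a summed linear level of 105.5 to 108.7 over the 4 arrays. Cox8c, described in testis, was at 6.75, 6.79, 6.53 and 6.43, lower in the 2 older pools, at -0.32 or 1.25-fold from 4 to 21 months. Its other probe set, at 5.36, 5.39, 5.49 and 5.28, had a difference of -0.08 and was highest at 13 months, so the size of the difference depends on the probe set. Cox7c was read by a dim probe set at 4.23, 3.94, 4.32 and 4.25, and its other probe set was below the filter.

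Early adulthood is covered by 8 against 4 months. Of the 59 members 37 were lower at 8 months and 16 higher, where 48.7% of all kept genes were lower, and 54.2% of the bright ones. The median was -0.02, against 0.00 over all kept genes and -0.02 over the bright genes, and it was 0.00 after quantile normalization and positive, at 0.0026, after cyclic loess. At least 1.1-fold lower were 7 members, or 11.9%, where 17.5% of all kept genes and 12.4% of the bright ones were. At least 1.1-fold higher were 2, or 3.39%, where 17.1% and 6.35% were. The lower direction lay in complex I, with Ndufa4 counted there, where 27 of 33 were lower and the median was -0.04. The medians of complexes II, III and IV were 0.01, 0.00 and 0.01. Whether the complexes differ was not tested.

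Behind Cox7c, the largest lower difference at 8 vs 4 months was that of Ndufa10, an accessory subunit of the membrane arm of complex I, at 10.06, 9.87, 10.11 and 10.03. The 8-month pool stood alone below the rest, by 0.19 or 1.14-fold from 4 months. A dim second probe set of Ndufa10, at 4.65, 4.70, 4.73 and 4.65, did not show this, and the mean of both was at -0.07 for 8 vs 4 months. Cox5a, a matrix-side subunit of complex IV, had the same shape at 11.31, 11.13, 11.29 and 11.26, but its other probe sets, at 11.25, 11.17, 11.14 and 11.20 and at 10.23, 10.15, 10.17 and 10.21, stayed low at 13 months. Ndufa5 was at 9.48, 9.32, 9.50 and 9.52 and its other probe set at 8.60, 8.49, 8.60 and 8.58, both lowest at 8 months. The others past 1.1-fold lower were Ndufs8, Ndufc1 and Ndufs1, at -0.16, -0.15 and -0.14. Higher were Cox6a2 by 0.17 and Uqcr10, a small complex III subunit, by 0.15. Uqcr10 was at 9.44, 9.59, 9.51 and 9.42, and its other probe sets differed by 0.09 and -0.03 between these ages, while at 21 vs 4 months they differed by -0.14 and -0.22. Ndufb3, of the membrane arm, was at 9.01, 9.12, 8.96 and 8.97, high at 8 months.

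The step into middle age, 13 against 8 months, shares its 8-month array with the comparison before. Here 45 of 59 members were higher and 11 lower, where 50.2% of all kept genes were higher, and 59.9% of the bright ones. The median was 0.05, against 0.01 and 0.03. At least 1.1-fold higher were 9 members, or 15.3%, where 19.6% of all kept genes and 16.1% of the bright ones were. At least 1.1-fold lower were 2, or 3.39%, where 16.8% and 8.66% were. In complex I 29 of 33 genes were higher, the 6 core subunits described above among them, and the median was 0.07. Ndufa10 was higher by 0.24, Ndufa5 by 0.18, Ndufc1 by 0.17 and Ndufs1 by 0.16. Lower were Cox8c at -0.26 and Ndufb3 at -0.16. This step depended on the scaling: after quantile normalization 24 members were lower and after cyclic loess 26, beside 50.6% and 50.2% of all kept genes, with medians of 0.01 in both.

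The last step, 21 against 13 months, shares its arrays with the others. Of the 59 members 44 were lower and 13 higher, where 46.4% of all kept genes were lower and 45.0% of the bright ones. The median was -0.04, against 0.01 over all kept genes and over the bright ones. At least 1.1-fold lower were 4 members, where 19.2% of all kept genes were, and none was at least 1.1-fold higher, where 22.1% were. Uqcrc1 was lower by 0.18 on the log2 scale, Ndufs7 by 0.15, and Ndufs1 and Uqcrh by 0.14 each. Highest were Uqcrc2 at 0.09 and Ndufs8 and Cox7a2l at 0.07. Lower counts by complex were 23 of 33 in complex I, 4 of 4 in complex II, 7 of 9 in complex III and 10 of 12 in complex IV, and Cycs was equal. The next brightest probe sets gave 23 lower and 13 higher with a median of -0.03, and their share over all genes was not counted. Scaling the arrays another way gave 54, 53 and 51 lower members after centring, quantile normalization and cyclic loess, where 56.8%, 53.0% and 49.7% of all kept genes were lower.

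**Figure D3:**
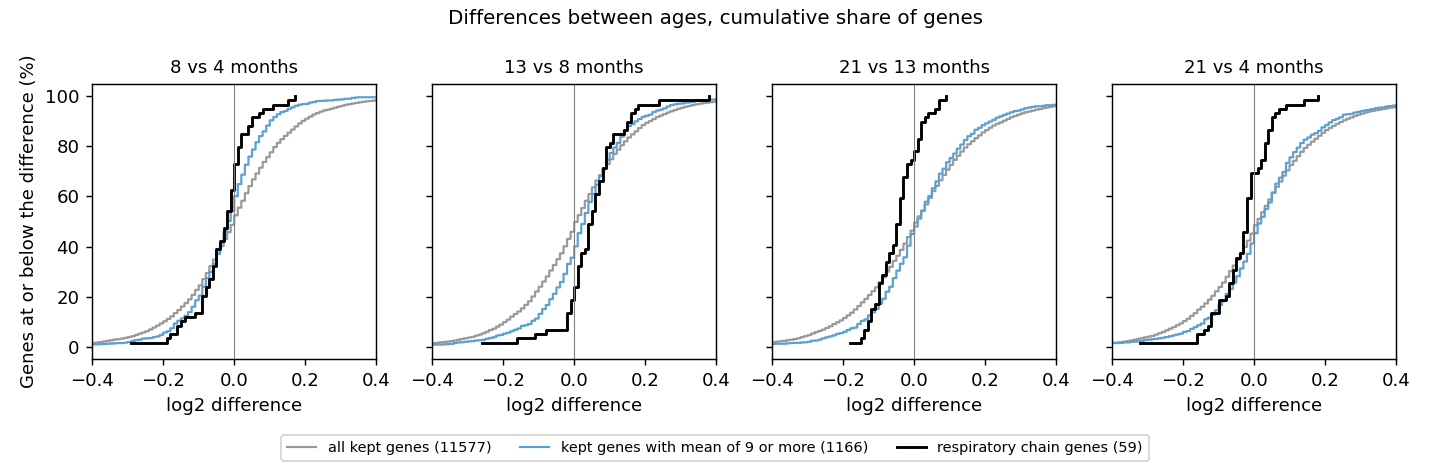
Each panel gives, for 1 pair of ages, the share of genes in percent at or below a log2 difference, for the 59 respiratory chain genes in black, the 1166 kept genes with a mean of 9 or more in blue and all 11577 kept genes in grey; the axis ends at -0.4 and 0.4. The black curve is steeper than the others, and at 21 vs 13 and 21 vs 4 months it reaches 74.6% and 69.5% below a difference of 0.

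**Figure D4:**
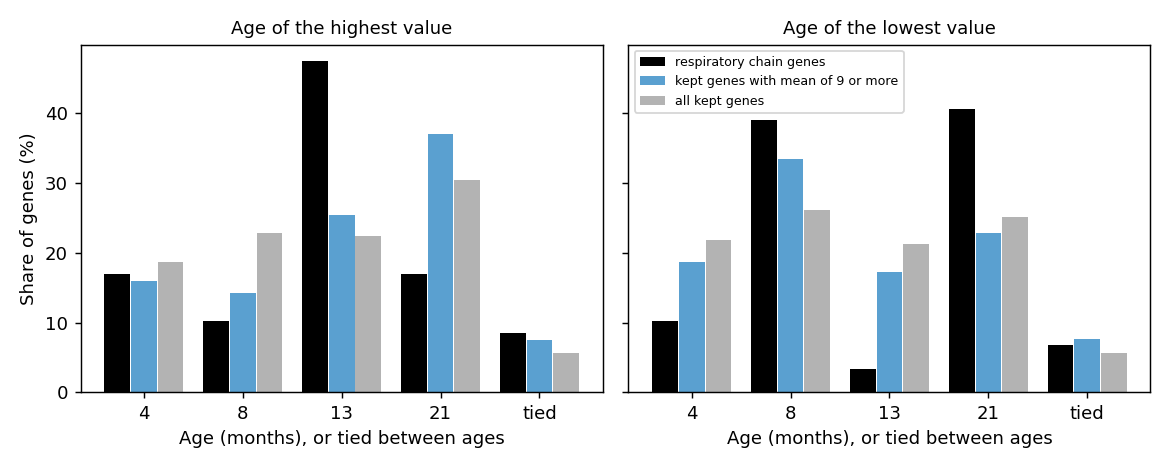
Bars give the share of genes in percent whose highest (left) or lowest (right) value lies at each age, with ties apart, for the respiratory chain genes, the bright genes and all kept genes. The members are highest at 13 months in 47.5% and lowest at 13 months in 3.4%.

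Other genes of the pathway were described from lists of the same kind. The 18 ATP synthase genes, the enzyme that uses the proton gradient, had a median of -0.01 at 21 vs 4 months, with 12 lower and 3 higher. Over all kept genes 45.2% were lower then, and over the bright ones 41.3%. At 21 vs 13 months 15 of the ATP synthase genes were lower, beside 46.4% of all kept genes and 45.0% of the bright ones. The exception past 1.1-fold was Atpif1, the inhibitor of the enzyme, at 6.32, 6.28, 6.30 and 6.57, higher at 21 months. The mitochondrial gene ND5, the only mitochondrially encoded complex I subunit analysed, was lower at every step, at 12.47, 12.42, 12.40 and 12.35. Of 13 tricarboxylic acid cycle genes 11 were lower at 8 than at 4 months and all 13 higher at 13 than at 8 months, with medians of -0.07 and 0.10, where 48.7% of all kept genes were lower and 50.2% higher in these comparisons and 54.2% and 59.9% of the bright ones. The list was counted under the main scaling alone, and at 21 vs 4 months 8 were lower and 5 higher.

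Assembly factors help to build the complexes but are no part of them. Of 14 complex I factors 9 were higher and 4 lower at 21 vs 4 months, with a median of 0.05. Over all kept genes 51.4% were higher and 45.2% lower. At least 1.1-fold higher were 3 factors, a share like the 22.2% of all kept genes, among them Timmdc1 with 0.20 and Acad9 with 0.18. At least 1.1-fold lower was 1, Ecsit, at -0.14, where 17.4% of all kept genes were. Of 26 factors of complexes II to IV 13 were higher and 13 lower, beside 45.2% lower over all kept genes. Sco1 and Sco2, which deliver copper to complex IV, were lower by 0.36 and 0.25 on the log2 scale. Sco1 was at 5.50, 5.19, 4.95 and 5.14, and Sco2 at 8.84, 8.74, 8.73 and 8.59, both highest at 4 months. The largest higher differences of this list were those of Sdhaf1, Cox19 and Cox20, at 0.21, 0.20 and 0.15. At least 1.1-fold lower were 4 of these factors and higher 3, where 17.4% and 22.2% of all kept genes were. Whether subunits and factors differ was not tested.

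Among 19 regulators of mitochondrial genes 10 were higher and 9 lower at 21 vs 4 months, with a median of 0.02, beside 45.2% of all kept genes lower. Ppargc1a, a coactivator of mitochondrial biogenesis that fasting induces in liver, was at 6.08, 5.50, 5.93 and 5.83, lowest at 8 months, at -0.58 from 4 months. Its relative Ppargc1b was at 6.80, 7.27, 7.15 and 6.83, highest at 8 months. Tfb1m, which modifies mitochondrial ribosomal RNA, was higher by 0.53, at 6.47, 6.76, 6.62 and 7.0. Of the factors whose motifs were searched, Nrf1 was at 5.13, 5.20, 5.23 and 5.15 and Yy1 at 8.52, 8.39, 8.41 and 8.56. The DNA-binding GABP subunit gene Gabpa was at 7.74, 7.63, 7.65 and 7.83. The partner subunit gene Gabpb1 was at 4.39, 4.37, 4.58 and 4.16, the largest lower difference of the list at 21 vs 13 months. Gabpb1 lay not far above the filter, so no direction is read from it. Gabpb2 was at 6.68, 6.76, 6.55 and 6.56. The 73 mitochondrial ribosomal protein genes had a median of 0.02, the 12 coenzyme Q synthesis genes 0.07, the 21 import genes 0.00 and the 6 genes of other routes of electron entry -0.03.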

How the data were processed

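Liver RNA of 4 pools of male C57BL/6J mice was measured on 4 arrays, grouped by the labelled age. The deposited log2 expression values were made by the authors with RMA, per the submitters' processing notes. RMA version, definition of probe sets, and arrays that were normalized jointly: not given in the sources used here. RMA aligns arrays and compresses differences of dim probe sets.

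Gene symbols came from the platform's annotation table, and all 64 member identifiers matched a GRCm38.p6 gene table, and 0 symbols changed. Of 45101 probe sets, 34945 had 1 symbol and 932 several, and 9 of these shared ones held a member symbol and entered no count. No test was run. Differences were counted by size (any, 1.1-fold, 1.2-fold, 1.5-fold) beside the share over all kept genes. Of the 59 probe sets used for kept members 9 are of the s or x type, which can read related transcripts, as are 25 of their other probe sets above the filter. Alternatives were another probe set rule, filter, scaling, fold or symbol rule. Members and lists were chosen with earlier results of these data known. Named genes were, for each comparison, the 3 largest differences each way with ties, members past 1.2-fold or moving in 1 direction at every step by at least 0.1 in all, the Sdh genes, Cyc1, Cycs, core subunits and isoforms, and up to 3 genes each way of a related list; other names were chosen after their values were seen. The counting was tested on simulated data. Scaling alternatives used limma 3.58.1 in R 4.3.3. Counts were made in Python 3.11.15 with pandas 2.3.3 and numpy 2.4.6, and plots with matplotlib 3.10.9.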

Additional observations from a re-analysis of the deposited data

How the results depend on the processing

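No paired analysis was possible because each age has 1 array. With no replicates, a median was taken as moved where it shifted by more than the median disagreement between 2 probe sets of a member. By limits of this kind 148 of the values compared under an alternative stayed close, 27 moved and 1 changed sign. For medians the limit was 0.075, 0.055, 0.05 and 0.04 at 8 vs 4, 13 vs 8, 21 vs 13 and 21 vs 4 months. The members' medians, -0.02, 0.05, -0.04 and -0.02, were smaller in size. Each could reach 0 and still count as close, so the label does not show that it held. At 13 vs 8 months the median was 0.0125 after quantile normalization and 0.0129 after cyclic loess. Some alternatives, such as wider symbols with 61 members, changed few genes. At 8 vs 4 months the members' median turned from -0.02 to 0.0026 with cyclic loess. Quantile normalization moved the medians at 21 vs 4 months further down, to -0.07 for all members, -0.078 for complex I, -0.10 for complex II and -0.065 for complex III. Averaging each gene's probe sets, dim ones of Sdha included, put complex II at -0.1025. The number at least 1.1-fold lower at 21 vs 4 months was 8 after centring, 10 after quantile normalization and 8 after cyclic loess, and 1 at 1.2-fold and 0 at 1.5-fold. The number at least 1.1-fold higher was 0 with the mean over probe sets, 5 with no filter, 1 after centring, 0 after quantile normalization, 1 after cyclic loess, and 0 at 1.2-fold and at 1.5-fold. The number lower at 13 vs 8 months was 24 after quantile normalization and 26 after cyclic loess. The number lowest at 21 months was 37, 42 and 37, and lowest at 8 months 14, 10 and 13, after centring, quantile normalization and cyclic loess. Members moving in 1 direction at every step were 1 with the mean over probe sets and 0 with steps of at least 0.05. The cause of these shifts was not tested. Of 28 differences of named genes past 1.1-fold, 14 came under 1.1-fold with the mean over probe sets. After quantile normalization 11 did and after cyclic loess 9, and none changed sign in these 3 alternatives. Genes with 1 probe set, such as Ndufs1 and Uqcrc1, could not change with the mean over probe sets, and Cox7c had no value there. The 14 therefore came from fewer than 28 differences that could change. The filter at a mean of 9, the counts by age and by range were chosen after seeing the data. The 4 arrays without replicates limit every statement here to these pools.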
